A study of Mus musculus with 14 samples.

Results

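The erythroid priming genes are 8 genes of the red cell programme (Klf1, Hemgn, Tfrc, Alas2, Car1, Car2, Aqp1 and Ank1), described here across the mouse blood progenitors of a study of Tet2 loss. Their members are all probe sets that the array annotation assigns to these symbols, 16 of the 45101 probe sets measured, or 8 of the 18194 genes named. Tfrc had 6 probe sets, Ank1 had 4 and each of the other genes had 1. RNA of 7 groups, each of 2 arrays, was measured on Affymetrix Mouse 430 2.0 arrays. LSK cells (lineage-negative bone marrow cells with c-Kit and Sca1, which include the stem cells), common myeloid progenitors (CMP) and granulocyte-macrophage progenitors (GMP) were sorted from wild-type (WT) and Tet2 knockout (KO) mice, and the last group held KO cells sorted as CD150+ LSK and then replated 5 times in culture. LSK and CMP came from Tet2+/+ Mx+ and Tet-/-Mx+ littermates on a B6/129 background, taken 4 weeks after deletion by pIC injection, so that the WT mice carried Mx and had the injection too. The time after deletion of the GMP and replated cells and the age of the mice were not given in the sources used here, and replated WT cells were not analysed here. As background, pIC evokes an interferon response that switches on the Mx1 promoter, which is active in other tissues as well as in blood cells.

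Multipotent blood progenitors carry low amounts of RNA of several lineages before they commit, a state called lineage priming. As background, the erythroid share of it is generally held to fall along the granulocyte branch. Of the members here, only Hemgn and Car2 passed as lower from LSK to GMP, as given further on. Klf1 (EKLF) is the zinc finger factor that switches on much of the red cell programme through CACCC boxes, together with Gata1 at GATA motifs, and Hemgn is a nuclear protein of blood progenitors and young red cells. The other members do the work of a red cell: Tfrc takes up iron bound to transferrin, Alas2 makes the first precursor of haem, Car1 and Car2 interconvert carbon dioxide and bicarbonate, Aqp1 is a water channel, and Ank1 ties the membrane to its skeleton.

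Array medians ranged from 31.2 to 33.0 intensity units, and the first principal component, with 41.2% of the variance, separated the replated cells (2 arrays) from all 12 arrays of sorted cells. A floor was taken on each array as the highest of 27 bacterial control probe sets, and it lay between 20.8 and 27.8. The Tet2 probe set read 454 to 2045 on the sorted WT arrays, 855 to 2376 on the sorted KO arrays and 1786 and 1823 on the replated arrays, so it was not lower in cells labelled KO. The sources used here do not say which part of Tet2 was deleted, so this reading does not check the genotype, and WT and KO below are the labels. The female-specific Xist RNA read 4980.1 to 6634 on the sorted KO arrays, 18.7 to 29.7 on the WT arrays and 18.4 and 21.9 on the replated ones. The Y-linked Eif2s3y read 6.47 to 12.5 on the sorted KO arrays, 772 to 1203 on the WT arrays and 2056 and 2083 on the replated ones. Sex and genotype therefore cannot be told apart among the sorted cells. By these RNAs the replated cells were male and the sorted KO cells female, so sex and replating cannot be told apart in their comparison either. Fcgr3, whose protein was sorted on, read 382 to 571 in LSK, 634 to 1035 in CMP and 3382 to 5002 in GMP. Whether a group's 2 arrays hold RNA of different mice is not stated, so p-values measure only the spread between these samples, which may be technical.

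Promoters of 5 of the 8 genes were in the RefSeq table used (build GRCm38.p6). Those of Klf1, Hemgn, Aqp1 and Alas2 are shown because the RNA of the first 3 fell together in the replated cells, described further on, while Alas2 stayed under the floor throughout. Each is the 250 bases just before the annotated start, read 5′ to 3′ on the gene's strand, with capitals for GATA motifs (AGATAA or AGATAG or TGATAA or TGATAG) and CACCC boxes (CACCC), each searched on both strands, so that TTATCA or TTATCT or GGGTG is a match on the opposite strand. The Klf1 promoter is chr8:84901732-84901981 (plus strand), that of Hemgn chr4:46404184-46404433 (minus strand), that of Aqp1 chr6:55336049-55336298 (plus strand) and that of Alas2 chrX:150547167-150547416 (plus strand).
Klf1: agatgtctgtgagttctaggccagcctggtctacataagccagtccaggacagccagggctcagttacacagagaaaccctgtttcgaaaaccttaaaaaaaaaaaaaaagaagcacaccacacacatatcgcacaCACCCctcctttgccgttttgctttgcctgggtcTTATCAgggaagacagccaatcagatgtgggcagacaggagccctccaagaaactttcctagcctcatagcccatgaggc
Hemgn: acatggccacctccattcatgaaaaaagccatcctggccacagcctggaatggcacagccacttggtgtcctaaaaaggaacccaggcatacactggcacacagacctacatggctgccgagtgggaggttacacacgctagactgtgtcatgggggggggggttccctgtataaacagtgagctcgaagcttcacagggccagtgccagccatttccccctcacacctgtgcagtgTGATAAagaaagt
Aqp1: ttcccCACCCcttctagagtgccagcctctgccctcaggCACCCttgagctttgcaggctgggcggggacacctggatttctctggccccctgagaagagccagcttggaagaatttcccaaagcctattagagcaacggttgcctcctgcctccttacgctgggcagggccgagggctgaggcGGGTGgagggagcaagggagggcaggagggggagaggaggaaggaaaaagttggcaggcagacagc
Alas2: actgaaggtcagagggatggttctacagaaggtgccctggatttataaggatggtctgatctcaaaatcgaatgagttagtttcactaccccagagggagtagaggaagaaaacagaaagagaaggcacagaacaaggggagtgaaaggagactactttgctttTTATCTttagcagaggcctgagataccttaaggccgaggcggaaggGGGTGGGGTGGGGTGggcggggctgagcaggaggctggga
The Klf1 promoter held 1 GATA motif, at -80 to -75 from the start, and 1 CACCC box at -114 to -110. Hemgn held 1 GATA motif at -13 to -8 and no CACCC box, Aqp1 held 3 CACCC boxes and no GATA motif, and Alas2 held 1 GATA motif and 3 CACCC boxes. The pair of listed Tfrc promoters (chr16:32608646-32608895 and chr16:32608872-32609121, plus strand) held 2 and 3 CACCC boxes and no GATA motif. Among all 32851 promoters of the table, 26.5% held a GATA motif, 52.0% a CACCC box and 11.8% both, so a match in a single promoter of this length is common, and it is a description of these letters only.

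Klf1 RNA was found in every sorted population. Its intensity was 93.9 and 258 on the 2 WT LSK arrays, 129 and 147 in KO LSK, 341 and 330.4 in WT CMP, 369 and 129.9 in KO CMP, 175 and 194 in WT GMP and 139 and 121 in KO GMP, and 24.5 and 17.9 in the replated cells. By geometric mean, the order ran from WT CMP (335) through KO CMP (219), WT GMP, WT LSK and KO LSK to KO GMP (129.8), with each neighbour's arrays overlapping the next. The replated arrays lay below all 12 sorted arrays, and 1 of the 2 was above the floor. The 2 KO CMP arrays were far apart, 1 above all WT CMP arrays and the other among the lowest of the sorted arrays.

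Hemgn stood in a graded order. It read 2058 and 2047 in WT LSK, 1839 and 2223 in KO LSK, 1739 and 1884 in WT CMP, 1661 and 1708 in KO CMP, 711 and 974 in WT GMP, 853 and 655 in KO GMP and 46.7 and 54.3 in the replated cells. All GMP arrays were below all LSK and CMP arrays, and the replated arrays were below all GMP arrays, though still above the floor. LSK and WT CMP overlapped, as did WT and KO GMP.

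Tfrc, the transferrin receptor that feeds iron into the cell, ran the other way among the sorted cells. At its brightest probe set (1452661_at) the values were 1344 and 1786 in WT LSK, 1404 and 2774 in KO LSK, 2139 and 2847 in WT CMP, 3876 and 2772 in KO CMP, 4212 and 4713 in WT GMP, 4789 and 5128 in KO GMP and 1156 and 941 in the replated cells. All 4 GMP arrays were above every other array and the 2 replated arrays were the lowest, while LSK and CMP overlapped within the KO cells. The other 5 sets were dimmer, and each also had its highest value in GMP. Probe set 1422966_a_at ranged from 254 to 1228, and the array's control sets for the gene's 3′ end, middle and 5′ end ranged from 235 to 1028, from 28.2 to 135 and from 8.14 to 41.5. The 5′ control set was above the floor in GMP alone, and 1422967_a_at was at 64.9 to 113 in GMP against 13.3 to 41.7 elsewhere. As a measure of RNA quality, the 3′ to 5′ ratio of the Gapdh control sets was 1.5 to 1.61 in the sorted cells and 1.64 to 1.76 in the replated cells. The Actb ratio was 1.99 to 2.34 in the sorted cells and 2.12 to 2.32 in the replated cells. That of Tfrc was 16.1 to 44.1 and 25.4 to 40.3 in the same order, with its 5′ set under the floor outside GMP.

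**Figure D1:**
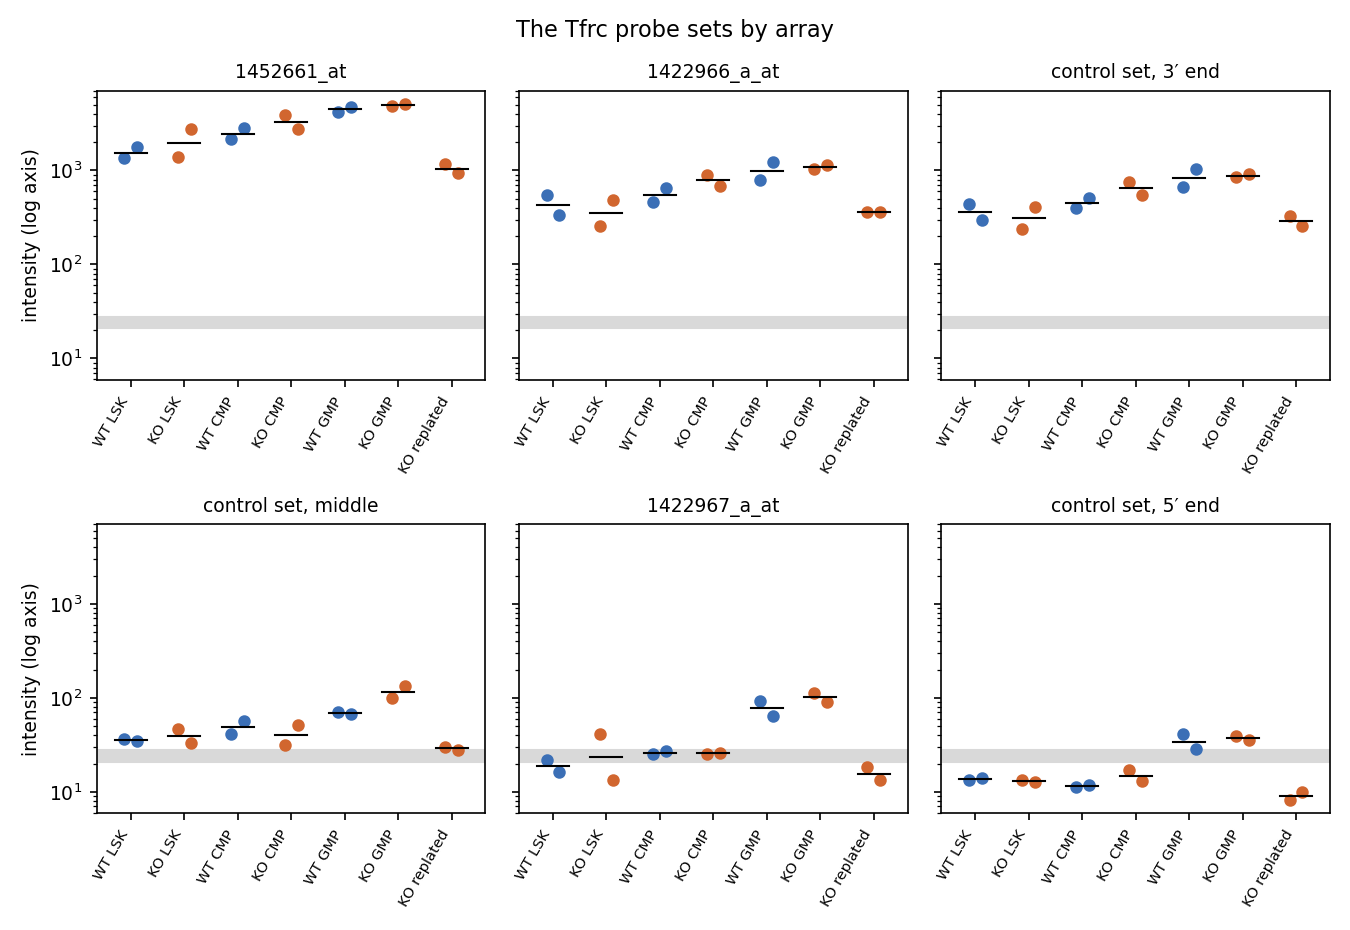
Intensity (log axis) of the 6 Tfrc probe sets on each array, WT in blue and KO in orange, with black lines at the geometric mean of each group and a grey band over the range of the arrays' floors (20.8 to 27.8). At the brightest set the GMP arrays lie above all others, and at the control set for the 5′ end the arrays of the other groups lie under the band.

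Alas2 was below the floor on all 14 arrays, with values of 6.67 to 11.2. Its level in these cells therefore has an upper bound only, and no fold change is given between groups that are both under the floor. The enzyme's RNA is known to be plentiful in later red cell precursors, and the gene is on the X chromosome.

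Car1 read 1822 and 2712 in WT LSK, 2164 and 3131 in KO LSK, 3449.6 and 4018 in WT CMP, 2457 and 1722 in KO CMP, 2923 and 1974 in WT GMP, 3065 and 2368 in KO GMP and 24.4 and 23.3 in the replated cells. WT CMP was highest and did not overlap any other group, the other sorted groups overlapped in a chain, and the replated arrays were just above their floors. Car2 had the same order of populations as Hemgn: it read 8852 and 8775 in WT LSK, 7962 and 9916 in KO LSK, 6406 and 6231 in WT CMP, 6474 and 5732 in KO CMP, 4250.1 and 3851 in WT GMP, 4704 and 4115 in KO GMP and 1228 and 1112 in the replated cells. The LSK, CMP, GMP and replated arrays did not overlap one another for Car2, and WT and KO overlapped within each sorted population.

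Aqp1 was highest in WT CMP, at 936 and 1209.9, then in KO CMP at 805 and 849. It read 453 and 325 in WT LSK, 746 and 451 in KO LSK, 778 and 363 in WT GMP and 532 and 428 in KO GMP. The replated arrays read 28.2 and 16.7, 1 of them above its floor. LSK and GMP overlapped, and the 2 WT GMP arrays were far apart, spanning most of the range of the LSK and GMP arrays.

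Ank1, the red cell ankyrin, was near the floor everywhere. Its brightest probe set (1425677_a_at) was above the floor on all 14 arrays but ranged only from 22.6 to 56.1. Probe set 1419421_at was above the floor on 10 arrays, 1452512_a_at on 2 and 1443291_at on none, and the highest reading of these 3 sets was 53.1.

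**Figure D2:**
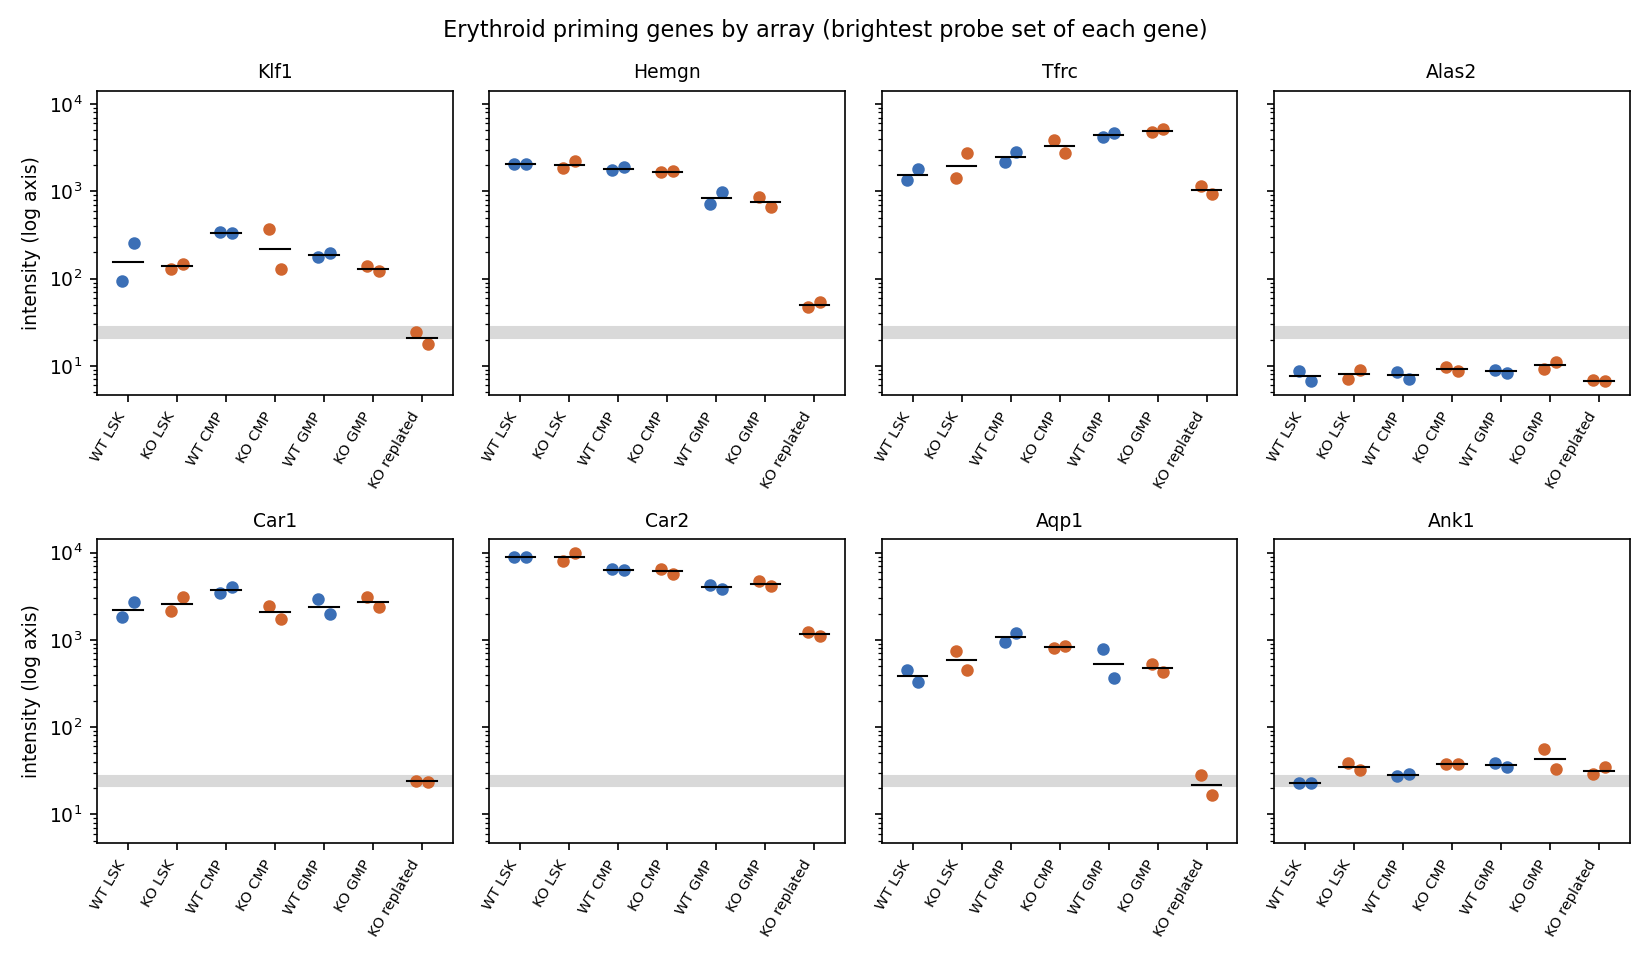
Intensity (log axis) of the brightest probe set of each of the 8 genes on each array, WT in blue and KO in orange, with black lines at the geometric mean of each group and a grey band over the range of the arrays' floors (20.8 to 27.8). Alas2 lies under the band and Ank1 in or just above it, while the replated arrays of Klf1, Car1 and Aqp1 lie in or close to the band and those of Hemgn, Tfrc and Car2 above it.

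The genotype comparison asks whether Tet2 loss changed these genes within each sorted population. No member passed the test between KO and WT: 0 of 16 probe sets over the average of LSK, CMP and GMP, where 0.248% of all probe sets did (limma, Benjamini-Hochberg adjusted p under 0.05). The count was also 0 in LSK (0.295% of all), 0 in CMP (0.0843%) and 0 in GMP (0.0710%). At an unadjusted p under 0.05 there were 2 of 16 in the average and 1 in each population, where 8.79%, 9.8%, 6.16% and 4.34% of all probe sets were (average, LSK, CMP and GMP), and limma with a trended and robust prior gave 0 as well. Among the brightest sets of the 7 genes above the floor, the tightest estimate was that of Car2, with an average log2 difference of 0.03 (95% interval -0.17 to 0.22), followed by Hemgn at -0.09 (-0.35 to 0.16). Klf1 had the widest interval, -0.43 (-1.11 to 0.25), and a 2-fold fall of Klf1 lay within it. The average difference was 0.30 (-0.12 to 0.72) for Tfrc, -0.15 (-0.54 to 0.23) for Car1, 0.03 (-0.51 to 0.56) for Aqp1 and 0.42 (0.12 to 0.73) for Ank1.

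Within a single population the farthest apart was Car1 in CMP. The KO arrays read 2457 and 1722 and the WT arrays 3449.6 and 4018, with no overlap, a log2 difference of -0.86 ± 0.30 (SE) that did not pass the test (adjusted p = 0.694). In LSK and GMP the difference in Car1 was 0.23 ± 0.30 and 0.17 ± 0.30. Differences of the genotype effect between populations were tested directly, and 0 of 16 members passed in CMP against LSK (0% of all probe sets), 0 in GMP against CMP (0%) and 0 in GMP against LSK (0.00887%). At an unadjusted p under 0.05 these counts were 1, 2 and 0 of 16, with 6.57%, 4% and 6.03% of all probe sets. For Car1 the difference of differences was -1.08 ± 0.42 for CMP against LSK (adjusted p = 0.707). Klf1 was -0.62 ± 0.52 in CMP, where 1 KO array read 369 and the other 129.9, and Ank1 was 0.63 ± 0.23 in LSK (adjusted p = 0.401) at values of 22.6 to 38.7.

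**Figure D3:**
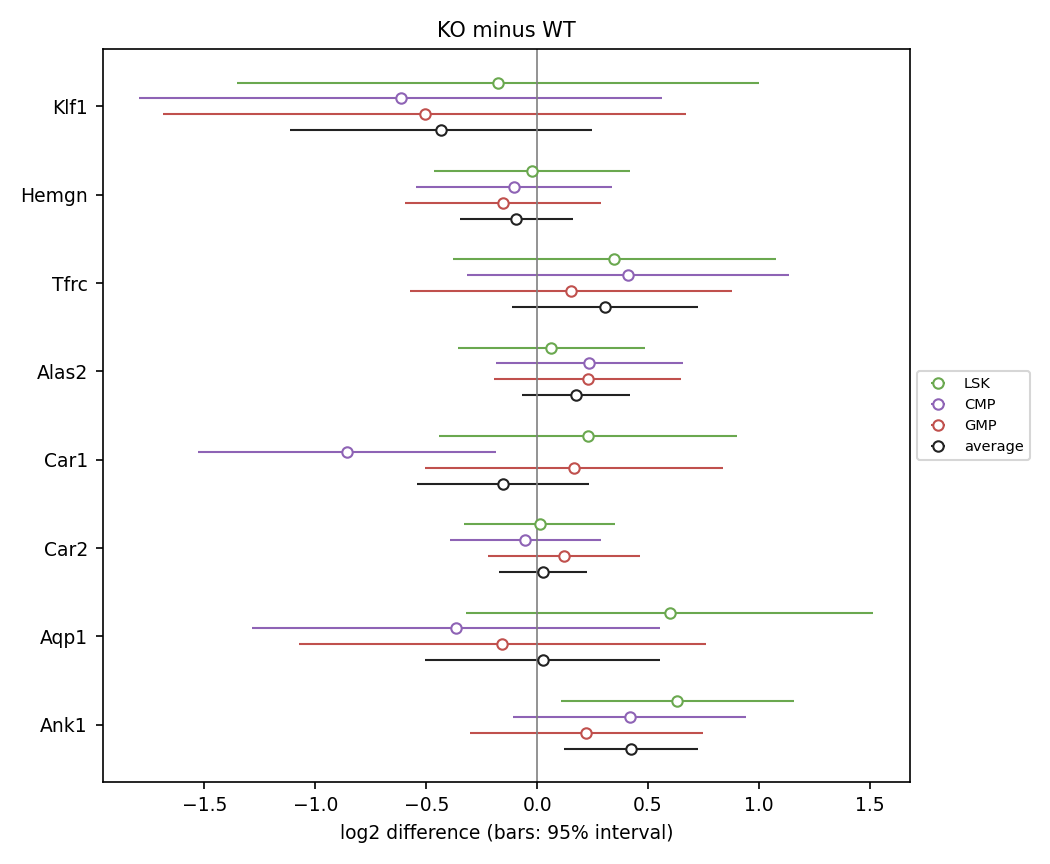
Log2 difference of KO minus WT for the brightest probe set of each gene, with 95% intervals, in LSK, CMP and GMP and for their average. All points are open, for adjusted p of 0.05 or more, and the intervals that exclude 0 are those of Car1 in CMP and of Ank1 in LSK and on average.

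The sorted populations can be compared in both genotypes on separate arrays. The time after deletion of the GMP was not given, so a difference in it cannot be told apart from the population in the steps to GMP. From LSK to GMP, Hemgn and Car2 fell and Tfrc rose, while Klf1, Car1, Aqp1 and Ank1 did not pass the test. In WT, 5 of 16 member probe sets passed (4.30% of all probe sets), 2 lower and 3 higher, the latter all of Tfrc. In KO 7 passed (4.34%), 2 lower and 5 higher, again all of Tfrc. Hemgn had a log2 difference of -1.30 ± 0.20 in WT, a 2.47-fold fall (adjusted p = 0.00712), and -1.44 ± 0.20 in KO, 2.70-fold (adjusted p = 0.00564). Car2 had -1.12 ± 0.15 in WT, 2.18-fold (adjusted p = 0.00406), and -1.01 ± 0.15 in KO, 2.02-fold (adjusted p = 0.00794). The brightest Tfrc set had 1.52 ± 0.32 in WT, 2.88-fold higher (adjusted p = 0.0324), and 1.33 ± 0.32 in KO, where its adjusted p was 0.0546. The KO calls of Tfrc were at the other 5 sets, from a log2 difference of 1.49 at the 3′ control set to 2.10 at 1422967_a_at. These were lost in 11 of 21 alternative fits at 1422966_a_at, in 9 at the 3′ control set (with the replicate block among them for both), in 4 at the middle one and in 10 at 1422967_a_at, whose difference was 2.93 or 1.28 without 1 or the other KO LSK array. Where LSK was under the floor only a bound holds. Tfrc was at least 3.56-fold higher in WT GMP at 1422967_a_at, a call lost in 13 of 21 alternative fits. At the 5′ control set it was at least 1.58-fold higher in WT and 1.74-fold in KO. The genotype term of these steps did not pass for any member, as given above.

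The intermediate steps held few calls. From LSK to CMP 0 of 16 members passed in WT (0.814% of all) and 0 in KO (0.588%), and the trended and robust prior gave 0 in both. At an unadjusted p under 0.05 there were 3 and 4 of 16, beside 10% and 12.4% of all probe sets. Aqp1 had a log2 difference of 1.47 ± 0.41 in WT with no overlap between the arrays (adjusted p = 0.193), and 0.51 ± 0.41 in KO. Klf1 had 1.11 ± 0.52 in WT and 0.67 ± 0.52 in KO, and Car1 had 0.74 ± 0.30 in WT and -0.34 ± 0.30 in KO, all short of the threshold. From CMP to GMP 1 of 16 passed in WT (0.415%), the Tfrc 5′ control set, at least 1.41-fold higher in GMP. In KO 2 passed (0.408%): the same set, at least 1.49-fold higher, and Hemgn, with -1.17 ± 0.20 (adjusted p = 0.0493). With values raised to the floor, as in these bounds, the calls of the 5′ control set were lost from CMP to GMP (adjusted p = 0.471 in WT and 0.329 in KO) and from LSK to GMP in WT (0.0775), and its KO call from CMP to GMP was lost in 14 of 20 alternative fits. In WT the Hemgn difference was -1.12 ± 0.20 with adjusted p = 0.0595, and Car2 had -0.64 ± 0.15 in WT and -0.47 ± 0.15 in KO. When only the groups compared were fitted, with 2 residual degrees of freedom, no stage call of a member was left. In those fits 0 of all probe sets passed in the steps to GMP, so the loss is not particular to the members. The brightest Tfrc set's LSK to GMP call in WT was lost in 8 of 22 alternative fits and the Hemgn call from CMP to GMP in 15, and the Car2 call in KO was lost without the second KO GMP array (adjusted p = 0.0619). The 5 early granulocyte markers measured, among them Mpo, all rose from LSK to GMP in both genotypes, from a summed intensity of 14198 to 17606 in LSK to 45519 to 48748 in GMP. On these bulk arrays fewer cells of a type and less RNA per cell cannot be told apart.

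**Figure D4:**
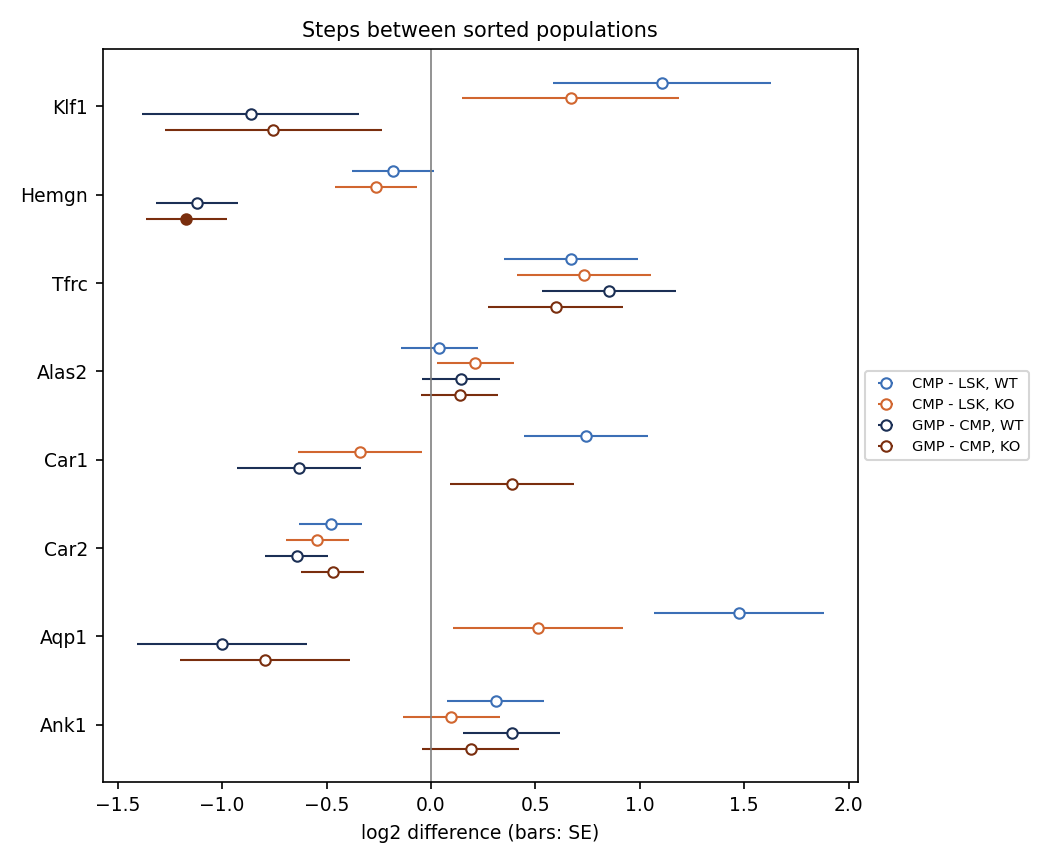
Log2 difference for the brightest probe set of each gene between LSK and CMP and between CMP and GMP, in WT and KO, with bars for the SE. Filled points passed adjusted p under 0.05 and open points did not: only Hemgn from CMP to GMP in KO is filled, and Tfrc and Hemgn lie on opposite sides of 0 in the second step.

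In the replated KO cells most of these genes were lower than in any sorted KO population, and Klf1, Car1 and Aqp1 were near or under the floor. Against KO LSK, 5 of 16 member probe sets passed the test, all lower, where 19.0% of all probe sets passed and 9.66% were lower. Against KO CMP 9 passed, all lower (18.3% of all, 9.50% lower), and against KO GMP 11, all lower (19.0% of all, 10.2% lower). The median log2 difference of the members was -0.51, -0.91 and -1.95 in that order, against 0.03, -0.03 and -0.02 over all probe sets. These 3 comparisons share the 2 replated arrays, and the 16 probe sets include 6 of Tfrc, so they are no independent counts. By gene, 5, 6 and 6 of the 8 were lower at their brightest probe set.

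Klf1, at 24.5 and 17.9, had a log2 difference of -2.72 ± 0.52 against KO LSK, -3.39 ± 0.52 against KO CMP and -2.63 ± 0.52 against KO GMP (adjusted p = 0.00578, 0.00175 and 0.00666). Without the second replated array, the lower of the pair, the comparisons with KO LSK and KO GMP missed the threshold (adjusted p = 0.0503 and 0.0564). Without 1 or the other KO CMP array the Klf1 difference from KO CMP was -2.64 or -4.14, past the threshold both times. Hemgn fell 40.1-fold against KO LSK (-5.33 ± 0.20), 33.4-fold against KO CMP and 14.8-fold against KO GMP, with adjusted p of 1.30e-06 or less. Both replated arrays of Hemgn were above the floor, so these folds are measured on both sides.

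Car1 had the largest folds: 109-fold lower than KO LSK (-6.77 ± 0.30, adjusted p = 5.15e-07), 86.3-fold than KO CMP and 113-fold than KO GMP. Its replated arrays, at 24.4 and 23.3, were just above their floors. The replated values of Klf1 and Aqp1 were near the floor too, so the folds of these genes depend on their starting levels and do not rank them. Car2 fell by less and stayed far above the floor, with a log2 difference of -2.93 ± 0.15 against KO LSK (adjusted p = 1.48e-06), -2.38 ± 0.15 against KO CMP and -1.91 ± 0.15 against KO GMP (adjusted p = 2.69e-05). Aqp1 had -4.74 ± 0.41 against KO LSK (adjusted p = 4.64e-05), -5.25 ± 0.41 against KO CMP and -4.46 ± 0.41 against KO GMP. With the lower replated array raised to its floor, the Aqp1 folds were 23.1, 32.9 and 19.0. The calls of Hemgn, Car1, Car2 and Aqp1 held in each of the 22 alternative fits for all 3 comparisons.

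Tfrc split the comparisons. Its brightest set was 3.14-fold lower than in KO CMP (-1.65 ± 0.32, adjusted p = 0.00646) and 4.75-fold lower than in KO GMP (-2.25 ± 0.32, adjusted p = 0.00109). Against KO LSK it had -0.92 ± 0.32 and missed the threshold (adjusted p = 0.0825), although the arrays did not overlap. The KO CMP call was lost without the second replated array (adjusted p = 0.0559). Against KO GMP all 6 Tfrc sets passed, and at 1422967_a_at and the 5′ control set, where the replated arrays were under the floor, Tfrc was at least 4.66-fold and at least 1.73-fold lower. Against KO CMP the 3′ control set passed too (-1.15 ± 0.33), and the 5′ control set passed with both groups under the floor, so no fold is given for it. These calls were lost in 10 of 21 and 14 of 20 alternative fits. Ank1 changed at 1 of its 4 sets, 1452512_a_at against KO CMP (-0.60 ± 0.18, adjusted p = 0.0478), with 1 of the 2 CMP arrays above the floor and neither replated array, and this call was lost in 15 of 20 alternative fits. Its brightest set had -0.15 ± 0.23, -0.25 ± 0.23 and -0.44 ± 0.23, none past the threshold, and Alas2 was under the floor on both sides.

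The replated cells also differed from the sorted cells in markers of other cells. Of 9 mast cell and basophil markers, 9 were higher than in KO LSK and 7 higher than in KO CMP. Against KO GMP 7 were higher and 1 lower. The summed intensity of the 9 was 76459 to 78613 against 8556 to 12450 on the sorted arrays. For Hdc, the log2 difference from KO LSK was 3.05 or 5.36 without 1 or the other KO LSK array. The mast cell proteases Cma1 and Tpsb2 read 15287 and 15568 and 7293 and 6997 in the replated cells against 15.3 to 64.3 and 18.9 to 50.7 in the sorted cells. The 5 early granulocyte markers were lower against all 3 groups, from a summed 14198 to 48748 in the sorted cells to 204 to 220.3, with 4 of the 5 under the floor on both replated arrays. Of 8 megakaryocyte markers, 6 were lower and 2 higher (Itga2b and Vwf) than in KO LSK and in KO CMP, and 4 lower and 3 higher than in KO GMP. The Vwf calls against KO LSK and KO CMP were lost in 3 and 2 alternative fits. Of 6 macrophage markers 3, 3 and 5 were lower, and of 6 lymphocyte markers 5, 2 and 2, with none higher. The late red cell markers Hba-a1 and Epb42 were under the floor on all 14 arrays and Slc4a1 read 24.0 to 193. The part that cell make-up, culture or the difference in sex had in the fall of the members was not tested.

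**Figure D5:**
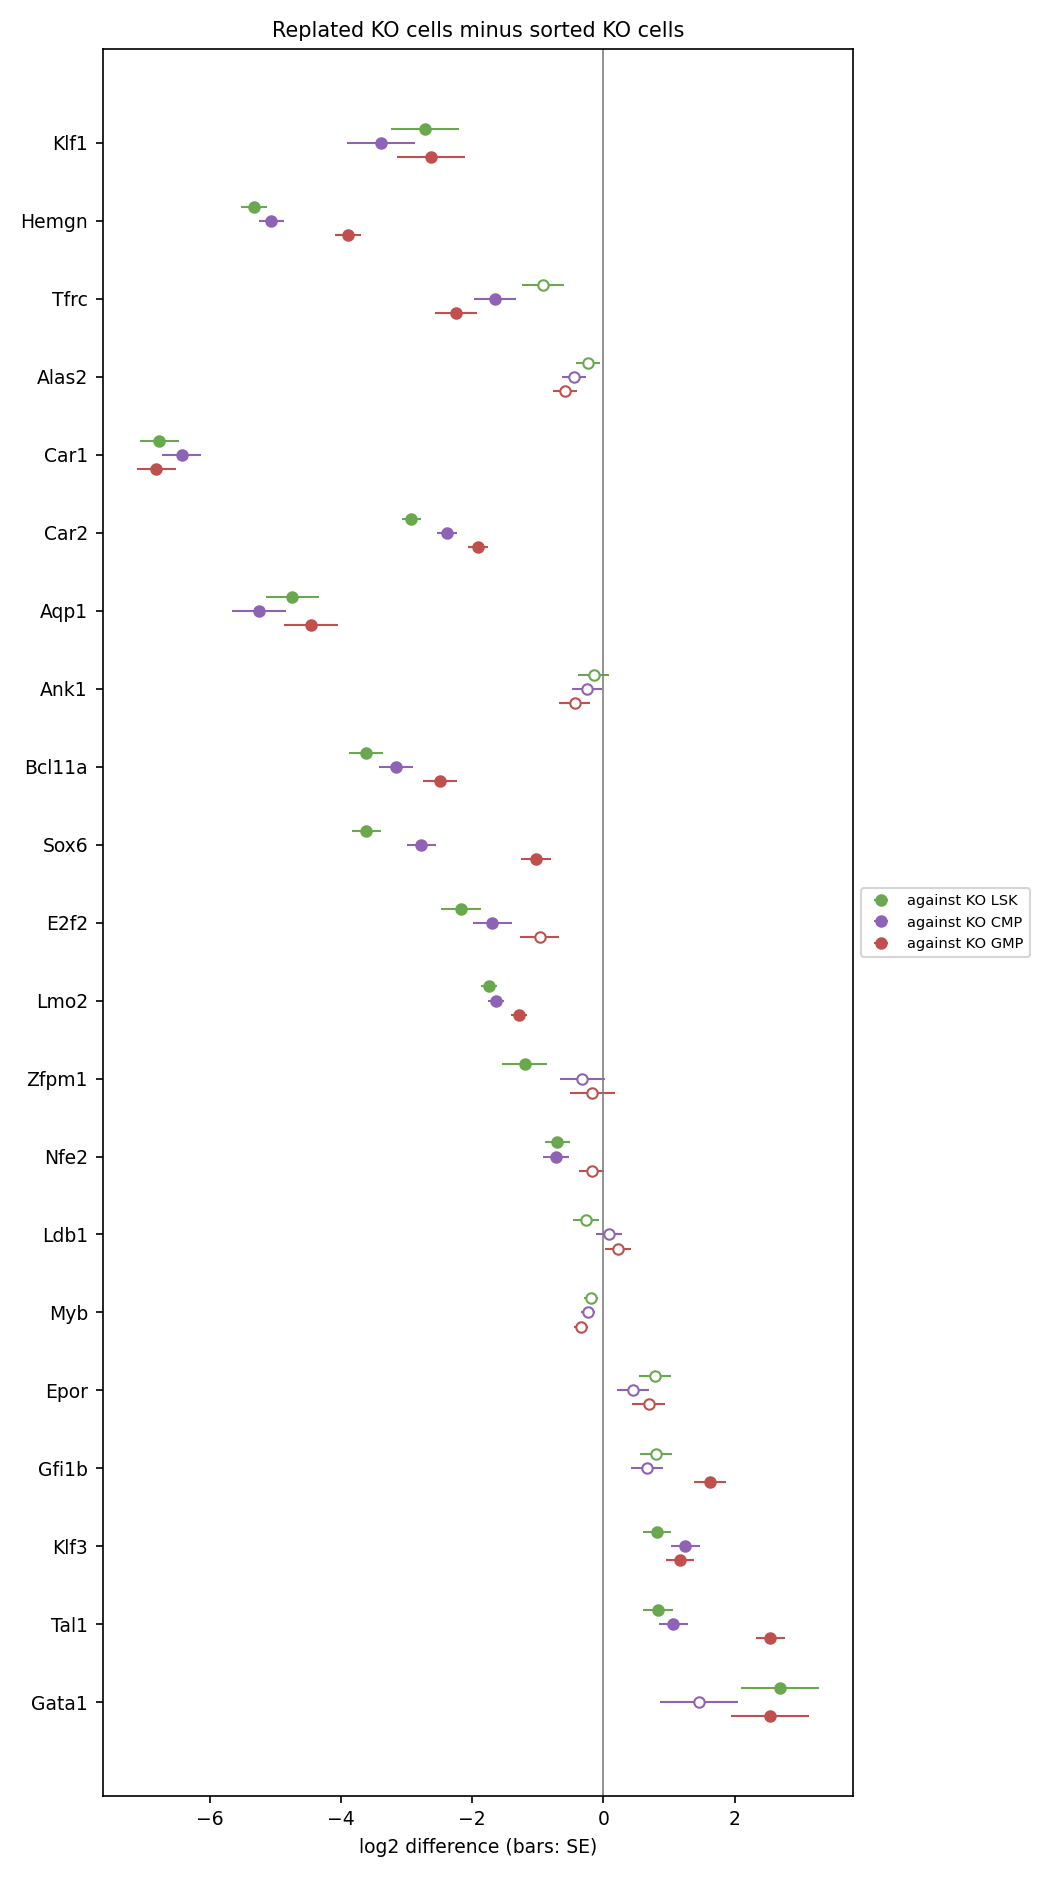
Log2 difference of replated KO cells minus KO LSK, KO CMP and KO GMP for the brightest probe set of each member (the first 8 rows) and of 13 erythroid regulators (the receptor Epor among them), with bars for the SE. Filled points passed adjusted p under 0.05 and open points did not: Car1, Aqp1 and Hemgn lie farthest below 0, and Gata1, Tal1, Klf3, Gfi1b and Epor lie above it against all 3.

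The erythroid regulators listed beside Klf1 did not move as one. The list held 13 genes, transcription regulators and the receptor Epor. Of the 13, 3 were higher and 6 lower than in KO LSK, 2 and 5 against KO CMP, and 4 and 3 against KO GMP (list medians -0.27, -0.23 and -0.17). Gata1, the partner of Klf1 at many red cell genes, read 4149 and 4075 in the replated cells, above its 283 to 1989 on the sorted arrays. Its log2 difference was 2.70 ± 0.60 against KO LSK (adjusted p = 0.0119) and 2.54 ± 0.60 against KO GMP (adjusted p = 0.0155), the opposite direction to Klf1, and 1.46 ± 0.60 against KO CMP (adjusted p = 0.142). The calls against KO LSK and KO GMP were each lost without either replated array, as in some other fits without 1 array, and the Gata1 difference from KO LSK was 2.06 or 3.33 without 1 or the other KO LSK array. Tal1, a helix-loop-helix factor of the same complex, was higher against all 3, at 0.83 ± 0.23, 1.07 ± 0.23 and 2.55 ± 0.23, and lost its calls in 4, 3 and 0 of 22 alternative fits, whereas its partner Lmo2 was lower (-1.74 ± 0.12, -1.63 ± 0.12 and -1.29 ± 0.12). The globin gene repressors Bcl11a and Sox6 were lower as well, Bcl11a by a log2 difference of -3.62 and Sox6 of -3.61 against KO LSK. From LSK to GMP 4 of the 13 were lower in WT and 3 in KO and none higher, with Sox6 at -2.47 ± 0.23 in WT and Tal1 at -1.27 ± 0.23, beside the falls of Hemgn and Car2. Of the 13, Sox6 alone passed between genotypes, 0.96 ± 0.13 higher in KO on average (adjusted p = 0.0280), a call lost in 10 of 22 alternative fits.

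The neighbours of Alas2, Tfrc and the membrane genes were counted in the same way. Of 9 haem synthesis genes measured, 2 were higher in GMP than in LSK in each genotype, Alas1 and Abcb10. Alas1, the form of the enzyme made in all tissues, read 88.2 and 177 in WT LSK and 1407 and 1227 in WT GMP, a log2 difference of 3.39 ± 0.32, and 3.35 ± 0.32 in KO, while Alas2 stayed under the floor. In the replated cells 3, 3 and 5 of the 9 were lower than in KO LSK, CMP and GMP and none was higher, with Alas1 at 48.1 and 56.2, and Alad (-2.48 ± 0.36) and Abcb10 (-2.27 ± 0.26) lower than in KO LSK. Of 9 iron handling genes, 3 were higher in GMP than in LSK in each genotype beside Tfrc: the iron exporter Slc40a1 (2.19 ± 0.22 in WT), the mitochondrial iron importer Slc25a37 (0.97 ± 0.20) and Hfe, which binds the transferrin receptor (1.52 ± 0.34). All 3 were lower in the replated cells than in each KO population, Slc40a1 by 9.27-fold against KO LSK, and Hmox1, which breaks haem down, was higher (3.62 ± 0.67 against KO CMP, and 4.82 or 2.43 without 1 or the other KO CMP array). The Hmox1 calls against KO LSK and KO GMP were lost in 14 and 10 of the 22 alternative fits, the Hfe call from LSK to GMP in WT in 14, and the Abcb10 and Slc40a1 calls of that step in KO in 12 each.

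The adult beta globins Hbb-b1 and Hbb-bt and the chaperone Ahsp had no probe set of their own and were not analysed here. Of 4 globin genes measured, Hba-a1 was under the floor on all arrays. Hbb-bh1 read 20.8 and 31.8 in the replated cells, the higher above its floor. Hbb-y, an embryonic beta-like globin, read 176 and 224 in the replated cells against 10.7 to 17.9 on the sorted arrays, all under the floor. It was at least 9.23-fold higher than in KO LSK (adjusted p = 1.49e-06), at least 7.90-fold higher than in KO CMP and at least 7.78-fold higher than in KO GMP, while Klf1 fell. Of 12 red cell membrane and skeleton genes, 4, 2 and 3 were lower in the replated cells than in KO LSK, CMP and GMP. None was higher. Among the lower were Ermap (-3.81 ± 0.39 against KO LSK) and the Rhesus-associated glycoprotein Rhag. Rhag was under the floor in the replated cells and read 65.6 and 262 in KO LSK. With values under the floor as read, its log2 difference from KO LSK was -5.26 or -3.26 without 1 or the other KO LSK array. Its difference from KO GMP was -2.61 or -3.88 without 1 or the other KO GMP array. None of the 12 passed from LSK to GMP in either genotype. Their medians in the replated cells were -0.74, -0.69 and -0.37.

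Of the other carbonic anhydrases and aquaporins, only Car3 passed as lower in the replated cells, but many could not be seen to fall. On both arrays of KO LSK, KO CMP and KO GMP, 6, 7 and 7 of the 14 other anhydrases were under the floor. The same held for 4 of the 10 other aquaporins in each group. Of 14 other carbonic anhydrases, Car3 fell with Car1, from 695 to 2644 on the sorted arrays to 17.7 and 10.4, under the floor, and was at least 43.7-fold lower than in KO LSK. Car8 and Car13 were higher against all 3 KO populations, and Car5b against KO CMP and KO GMP: Car8 read 95.5 and 92.5 and was at least 4.36-fold above KO LSK. The Car13 calls were lost in 1, 3 and 4 of 22 alternative fits against KO LSK, CMP and GMP, and the Car5b call against KO CMP in 2. Of 10 other aquaporins Aqp8 was higher against all 3, at 283 and 262 against 7.70 to 11.6 in the sorted cells, and Aqp9 passed against KO GMP (2.52 ± 0.41). Neither Ank2 nor Ank3 passed in any of the 3 comparisons or between LSK and GMP. No gene of the haem, iron, globin, membrane, anhydrase, aquaporin or ankyrin lists passed between KO and WT on average.

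The 5 genes whose pattern was closest to that of Klf1 among 13171 other genes, by Pearson correlation of log2 values over 14 arrays, were Lhfpl2 (r = 0.943), Grwd1 (0.942), Mcm6 (0.940), R3hdm4 (0.940) and Thumpd1 (0.937). The 14 points share 2 arrays, those of the replated cells, that lie far below the rest. Over the 12 sorted arrays the correlation with Klf1 was 0.858 for Lhfpl2, 0.746 for Grwd1, 0.798 for Mcm6, 0.766 for R3hdm4 and 0.695 for Thumpd1. Lhfpl2 read 669 to 1602 on the sorted arrays and 67.0 and 70.2 on the replated ones. Closest to the mean of the 8 members, each scaled to its own spread, were Chd1l (0.984), Frat2 (0.984), Ms4a6c (0.979), Ctsg (0.979) and Gm8096 (0.977), which over the sorted arrays had correlations of 0.775, 0.679, 0.437, 0.365 and 0.397. Ctsg is a granule protease that read 2226 to 3807 in LSK, 10468 to 11227 in GMP and 10.5 and 10.7 in the replated cells, and its correlation over the sorted arrays was the lowest of these 5. In the mean of the 8 members, Alas2, under the floor on all 14 arrays, and Ank1, near it, weigh as much as the others. Over the sorted arrays Tfrc also ran against Hemgn (r = -0.787) and Car2 (-0.818), which ran together (0.9).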

How the data were processed

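The deposited values are intensities per probe set, made by the authors with RMA (a background, normalization and summary step for Affymetrix arrays), per the submitters' processing notes. Their range shows a linear scale, and log2 was taken here. The RMA version and the reader of the arrays were not given in the sources used here. Per the labels' protocols, 5 ng of total RNA was amplified with the Ovation system before labelling. Probe sets were named from the platform annotation: 34958 had 1 gene, 932 several and 9211 none listed.

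One limma model (version 3.58.1, R 4.3.3) with a mean for each of 7 groups of 2 arrays was fitted to all 45101 probe sets (7 residual degrees of freedom), and 16 comparisons were read from it with two-sided moderated tests, Benjamini-Hochberg adjusted over all probe sets, called at an adjusted p under 0.05. A gene is described by its brightest probe set, and companion genes by the brightest set and up to 4 of smallest p per list and comparison, and others chosen after their values were seen. A fold against a group under the floor on every array is a bound. The floor was chosen after the data were seen, and the members and lists with earlier results of these data known. Companion genes with no probe set of their own were not analysed here. No pairing of samples by replicate number was seen: over 21 pairs of groups, deviations from the group means correlated from -0.078 to 0.075. Noise between arrays can hide a pairing in this measure, so mice shared between groups are not excluded. The number of arrays limits the precision. No scan date or other batch label was given. Alternatives were a replicate block, quantile normalization, log2 of the intensity plus 16, a filter at the floor, 1 probe set per gene, a trended and robust prior, only the groups compared, each array left out in turn and values raised to the floor. Figures were drawn with matplotlib 3.10.9.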

Additional observations from a re-analysis of the deposited data

How the results depend on the processing

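The counts of members called between genotypes, from LSK to CMP and in the differences of differences were 0 in every alternative run. From CMP to GMP in WT the 1 call became 2 with log2 of the intensity plus 16, 3 with a trended and robust prior, 0 with the filter at the floor and 0 in a fit of only the groups compared. From CMP to GMP in KO the 2 calls became 0 with the replicate block, 1 with quantile normalization, 1 with the filter at the floor, 1 with 1 probe set per gene and 0 in a fit of only the groups compared. From LSK to GMP the 5 calls in WT became 3 with 1 probe set per gene and 0 with only the groups compared, and the 7 in KO became 3 and 0. With only the groups compared, 0 of all probe sets passed in these steps to GMP. Against KO GMP the 11 calls in the replated cells became 7 with 1 probe set per gene, where 8 were tested. The 7 include Alas2, which was under the floor in both groups. No pairing by replicate number was seen, and the replicate block moved no other count by over 1.5 times. Without 1 array each, member calls were fewer in some fits for every comparison that held a call in the main fit. Calls over all probe sets also changed between these fits, so the changes are not particular to the members. Such a fit leaves 1 group with a single array, which is assumed to vary like the others. In addition, 145 single values of members (a probe set in a comparison), 40 of them called, were followed through the alternative fits. This gave 3150 readings of a value in a fit. A call was lost in 145 of these readings and gained in 15. No call changed sign, and 82 readings short of the threshold did. Raising values to the floor was chosen after seeing the data. Alas2, most Ank1 sets and the replated values of Klf1, Car1 and Aqp1 are limited by signal over background. With 2 arrays a group, a difference that missed the threshold is not shown to be absent.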
